A study of Mus musculus with 9 samples.

Results

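The opioid receptor family of the mouse has 4 genes, and CpG methylation over these 4 was described in the nucleus accumbens, the part of the ventral striatum where reward and aversive signals meet. The members were taken by name as Oprm1, Oprd1, Oprk1 and Oprl1, which encode the mu, delta, kappa and nociceptin receptors. They are 4 of 49554 genes on the autosomes and the X chromosome in the RefSeq table used for positions, of which 21631 are protein-coding. DNA from frozen punches had been sequenced genome-wide after bisulfite conversion, which leaves methylated cytosines as C, in 9 libraries. All 9 came from male C57BL/6J mice, with 8 weeks given as the age at the start of social defeat, a procedure in which each mouse met an aggressive CD1 male on 10 days. A group called Control held 5 libraries (numbered 2, 3, 4, 5 and 8), and one called Susceptible held 4 (numbered 2, 3, 6 and 7). One treatment text accompanies all 9 libraries, so neither the handling of the Control mice nor the scoring of susceptibility is known here. The labels do not state that each library is a separate mouse, so p-values measure the spread between these libraries.

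Opioid receptors are G protein-coupled receptors that act through inhibitory G proteins, lowering cyclic AMP and damping neuronal firing and transmitter release. Mu receptors are the main target of morphine and are known for their part in reward, kappa receptors respond to dynorphin and are known for dysphoria and stress responses, and delta receptors bind enkephalins. The nociceptin receptor has a closely related sequence but binds nociceptin and has little affinity for classical opioid peptides. Unmethylated CpG islands mark the starts of many mammalian genes, while CpGs in gene bodies and between genes are mostly methylated in brain.

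The 4 genes differ in how many CpGs their starts hold, and the 250 bases before 4 of their listed starts are shown for that reason, from RefSeq on GRCm38.p6, 5′ to 3′ on the strand of the gene, with each CpG in capitals. The table of promoters holds Oprd1, Oprl1 and Oprm1. For Oprm1 it gives a start at the upstream end of the gene and another 29977 bp further in, called the internal start below, with a further one 6 bp beyond it. For Oprl1 it lists starts at positions 181715016, 181715348 and 181715690, and the first is shown. The Oprd1 stretch is chr4:132144487-132144736 on the minus strand, the Oprl1 stretch chr2:181714766-181715015 on the plus strand, the Oprm1 gene start chr10:6758343-6758592 and the Oprm1 internal start chr10:6788320-6788569, both on the plus strand.
Oprd1: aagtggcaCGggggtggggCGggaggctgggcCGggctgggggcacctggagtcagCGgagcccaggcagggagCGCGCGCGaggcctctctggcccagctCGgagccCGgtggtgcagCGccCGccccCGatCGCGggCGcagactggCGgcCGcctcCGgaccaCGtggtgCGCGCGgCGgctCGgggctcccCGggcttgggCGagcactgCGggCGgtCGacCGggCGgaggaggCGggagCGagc
Oprl1: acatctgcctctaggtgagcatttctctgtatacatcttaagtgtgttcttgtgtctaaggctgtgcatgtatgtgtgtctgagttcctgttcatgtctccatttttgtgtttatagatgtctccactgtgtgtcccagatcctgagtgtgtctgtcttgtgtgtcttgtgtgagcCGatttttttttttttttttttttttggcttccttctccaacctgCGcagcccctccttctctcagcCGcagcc
Oprm1 gene start: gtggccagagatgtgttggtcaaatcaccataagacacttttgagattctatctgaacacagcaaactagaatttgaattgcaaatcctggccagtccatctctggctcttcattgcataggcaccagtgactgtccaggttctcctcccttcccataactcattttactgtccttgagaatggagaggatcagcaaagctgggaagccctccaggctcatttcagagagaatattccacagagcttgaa
Oprm1 internal start: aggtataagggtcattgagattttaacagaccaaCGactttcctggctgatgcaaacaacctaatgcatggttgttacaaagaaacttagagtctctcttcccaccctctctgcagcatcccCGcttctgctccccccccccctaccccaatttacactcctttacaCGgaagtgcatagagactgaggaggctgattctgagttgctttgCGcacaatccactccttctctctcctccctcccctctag
The Oprd1 stretch holds 34 CpGs and is 80% G or C, that of Oprl1 holds 3, that of the Oprm1 internal start holds 4, and that of the Oprm1 gene start holds 0. All 34 CpGs before Oprd1 were listed in every library, and over them the methylation level (methylated calls as a percent of all calls) was 1.03% ± 0.794 in Control (SD, n = 5) and 1.45% ± 0.655 in Susceptible (SD, n = 4). The 4 CpGs before the internal start of Oprm1 read 0% wherever they were listed, in 2 Control and all 4 Susceptible libraries. Searched on both strands, the GC box GGGCGG matched 4 times before Oprd1 and in none of the other 3 stretches, against 33.0% of 32619 promoter stretches of the same length with a match. The E-box CACGTG matched once before Oprd1 (6.06% of stretches hold it), and TATAAA matched once before Oprl1 (12.4% hold it). These are matches of letters and not measured binding sites.

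The libraries listed 313475624 to 570984634 calls each, all at cytosines with at least 10 calls, and read 74.5 to 77.1% methylated on the autosomes. All 4 Susceptible libraries listed more calls than any Control library. Control 5 and Control 8 stood apart from the other 7 in how far the 2 strands of a CpG disagreed. At CpGs of intermediate level, the squared difference between strands averaged 18.4 and 19.7 times its binomial expectation in them, against 2.38 to 6.11 in the rest. The Oprl1 start, and differences whose sign turned, are therefore also given without Control 5 and Control 8. Mitochondrial DNA read 2.33 to 3.62% in Control libraries but 8.96 to 15.1% in Susceptible ones, and the part of that gap in the results was not tested. In DNA from mixed tissue, a change in the share of a cell type and a change of methylation within cells cannot be told apart. The sum over start windows of 12 genes that mark striatal projection neurons read 6.26% ± 0.384 in Control and 6.61% ± 0.298 in Susceptible (SD, n = 5 and 4). Summed over their bodies these 12 read 63.4% ± 1.40 and 67.5% ± 5.29 (exact permutation p = 0.190, adjusted p = 0.524 over 12), with Susceptible 6 and Susceptible 7 apart at 71.5 and 72.7% and the other 7 libraries at 62.1 to 65.5%. That difference of +4.09 points was +2.77 without Susceptible 6 and +2.38 without Susceptible 7. Methylation at these genes does not itself show expression. Among 12 summed levels of 6 marker lists, the bodies of 8 astrocyte genes read lower in Susceptible without overlap of the groups (71.4% against 73.9%, exact permutation p = 0.00794, adjusted p = 0.0952 over 12). Susceptible 7 read 66.9% there and the other 3 Susceptible libraries 72.4 to 73.1%, just below the lowest Control library at 73.2%, and without Susceptible 7 the difference went from -2.55 to -1.06 points (exact permutation p = 0.107). The starts of 10 oligodendrocyte genes read 11.9% against 13.9% (exact permutation p = 0.0397, adjusted p = 0.238). Their part in the values below was not tested.

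Over whole gene bodies the 4 receptors held different levels, in the same order in nearly every library. Oprm1 was the highest, at 80.8% over the 9 libraries, followed by Oprl1 at 76.1%, Oprd1 at 71.1% and Oprk1 at 57.7%. Oprm1 exceeded each of the other 3 in 9 of 9 libraries, Oprk1 was below each of the others in 9 of 9, and Oprl1 exceeded Oprd1 in 8 of 9. The closest pair, Oprm1 and Oprl1, differed by 4.71 percentage points (SD of the paired difference 2.08, n = 9). The 6 body pairs and 6 start pairs were compared as one family of 12 by an exact sign-flip permutation test over libraries, two-sided, whose smallest possible p is 0.00391, and all 12 passed at adjusted p of 0.00521 to 0.00781.

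Between these neighbours the order depended on which CpGs were counted. Restricted to CpGs listed in all 9 libraries (297 in Oprm1 and 29 in Oprl1), Oprl1 read 5.05 points above Oprm1 (exact sign-flip permutation adjusted p = 0.00852). With each CpG weighted equally, Oprl1 exceeded Oprd1 by 1.497 points, which did not pass (adjusted p = 0.207, exact sign-flip permutation test). Oprk1 stayed the lowest under both settings. All these body levels include the CpGs at the start that lie inside the gene. The median over listed 1-kb body tiles, each counted once, was 87.6% in Oprm1, 86.3% in Oprk1, 85.9% in Oprd1 and 50.8% in Oprl1. By that measure Oprk1 was not the lowest. The Oprl1 median rests on 7 tiles, of which 4 had enough calls to test. The first of the 7 ends at position 181715000, where the gene begins, and so lies almost wholly upstream of it. The part of the start CpGs in the order of the bodies was not tested.

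At the starts the order was another one. Within 1 kb on each side of the gene start, Oprm1 read 75.8%, Oprl1 39.5%, Oprk1 26.5% and Oprd1 13.0%, means over 9 libraries. At these gene starts CpG density ran in the opposite order: 60.5 listed CpGs per kb around Oprd1, 16.5 at Oprk1, 8.50 at Oprl1 and 4.998 at Oprm1. Oprd1 thus had the lowest gene start and the highest density, and a body that held 15.98 CpGs per kb against 5.26 to 10.4 in the other 3 genes. The Oprk1 start was itself picked as the gene end with more CpGs, so its place in the order of density depends on that choice. Set among protein-coding genes by their Control level, the Oprd1 start was higher than 54.6% of tested starts and the Oprm1 gene start higher than 74.0%. These Oprm1 values, and the start pairs above, are those of its gene start. The window at its internal start read 10.2% in Control and 8.45% in Susceptible, below the Oprd1 means of 13.8 and 11.9%. It held 35 listed CpGs, against 33 at Oprk1 and 121 at Oprd1. With that start Oprm1 would be the lowest, and the opposite order of density would not hold.

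**Figure D1:**
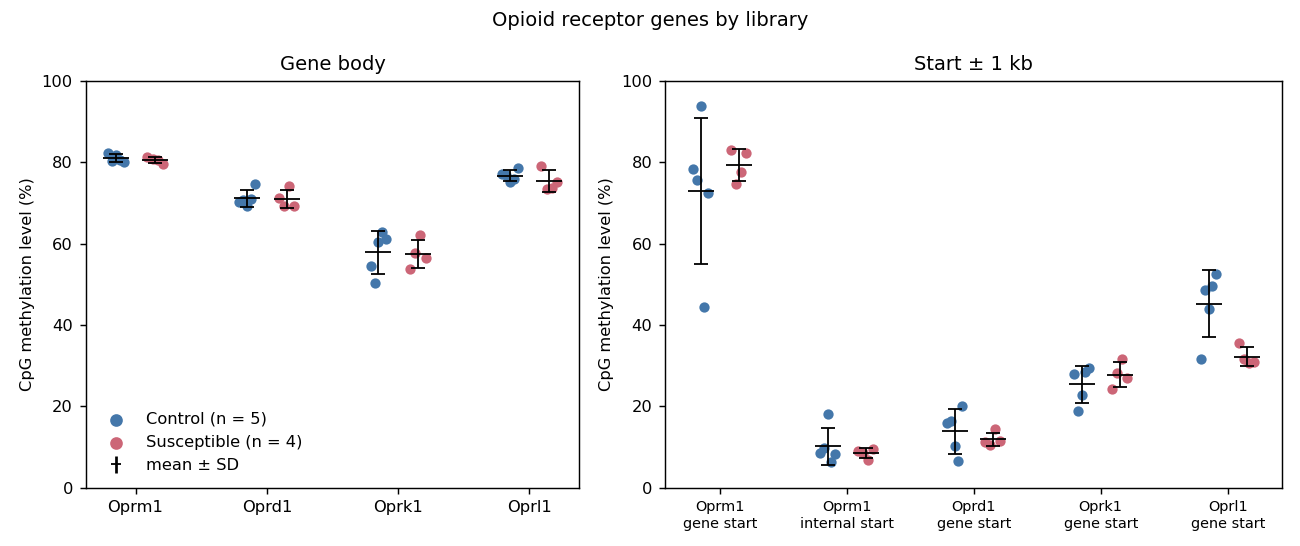
Methylation level (%) of each of the 4 genes over the gene body (left) and within 1 kb of the start (right), 1 point per library, blue for Control (n = 5) and red for Susceptible (n = 4), with bars for mean ± SD. Gene bodies of the groups overlap for all 4 genes. At the Oprl1 start 4 of 5 Control points lie above all 4 Susceptible points, and Control 2, at 31.7%, lies among them.

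Oprm1, the mu receptor gene, lies at chr10:6758593-7038209 (GRCm38, plus strand, gene ID 18390), and is by far the longest of the family at 279617 bp. The RefSeq table gives gene bounds and no exons, so positions below are distances from the start. Its body read 82.4, 80.4, 81.8, 80.7 and 80.01% in Control 2, 3, 4, 5 and 8 against 81.4, 80.7, 80.7 and 79.5% in Susceptible 2, 3, 6 and 7. The groups overlapped and no library stood out. The means were 81.0% ± 0.984 (SD, n = 5) and 80.6% ± 0.772 (SD, n = 4), on 19843 to 35781 calls per library, a difference of -0.46 points (exact permutation p = 0.468, smallest possible 0.00794).

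The upstream end of Oprm1 was methylated, and the internal start was not. The gene start window held 4 to 8 listed CpGs and 60 to 141 calls per library, and read 78.3, 75.8, 93.8, 44.4 and 72.4% in Control 2, 3, 4, 5 and 8 against 83.0, 74.8, 77.6 and 82.3% in Susceptible 2, 3, 6 and 7. Control 5 was far below and Control 4 above the rest. The means of 73.0% ± 17.9 and 79.4% ± 3.91 differed by +6.44 points, less than the Control SD, and by -0.69 points without Control 5 (exact permutation p = 0.619 and 0.914). Around the internal start, with 17 to 35 listed CpGs and 807 to 1574 calls, the level was 8.65, 9.72, 18.0, 6.32 and 8.23% in the Control libraries in the same order and 9.12, 8.53, 6.73 and 9.40% in the Susceptible ones. Control 4 was the highest and the other 8 libraries lay between 6.32 and 9.72%. The group means, 10.2% ± 4.55 and 8.45% ± 1.20, did not differ beyond the spread (-1.74 points, exact permutation p = 0.706), and the difference was +0.22 points without Control 4, -2.71 without Control 5 and -3.68 without Control 5 and Control 8. Of the 17 CpGs listed in all 9 libraries there, 13 were under 10% in both groups, from 123 to 484 bp past that start.

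In 1-kb tiles the internal start formed the deepest of a few valleys inside an otherwise methylated gene. The tile chr10:6788001-6789000 read 2.14% over the 9 libraries, while the median of Oprm1 body tiles was 87.6% and 197 of 279 listed body tiles were above 80%. Only 9 of the 279 were under 50%. A second valley of 2 tiles, chr10:6979001-6981000, read 36.6 and 12.2% and lies 221 to 222 kb past the start. The 12.2% tile rests on 1 to 8 CpGs and 11 to 222 calls per library and was not tested. There the RefSeq promoter table puts 2 starts of Ipcef1, a gene on the opposite strand (chr10:6885779-7054782) that overlaps the downstream part of Oprm1. Bisulfite levels summed over both strands cannot assign these CpGs to either gene. The windows around these Ipcef1 starts read 31.3% ± 6.04 and 25.7% ± 6.92 in Control and 37.1% ± 6.65 and 31.9% ± 11.4 in Susceptible (SD, n = 5 and 4), with overlapping groups. Another dip, chr10:6916001-6917000 at 18.6%, rests on 1 to 5 CpGs per library.

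**Figure D2:**
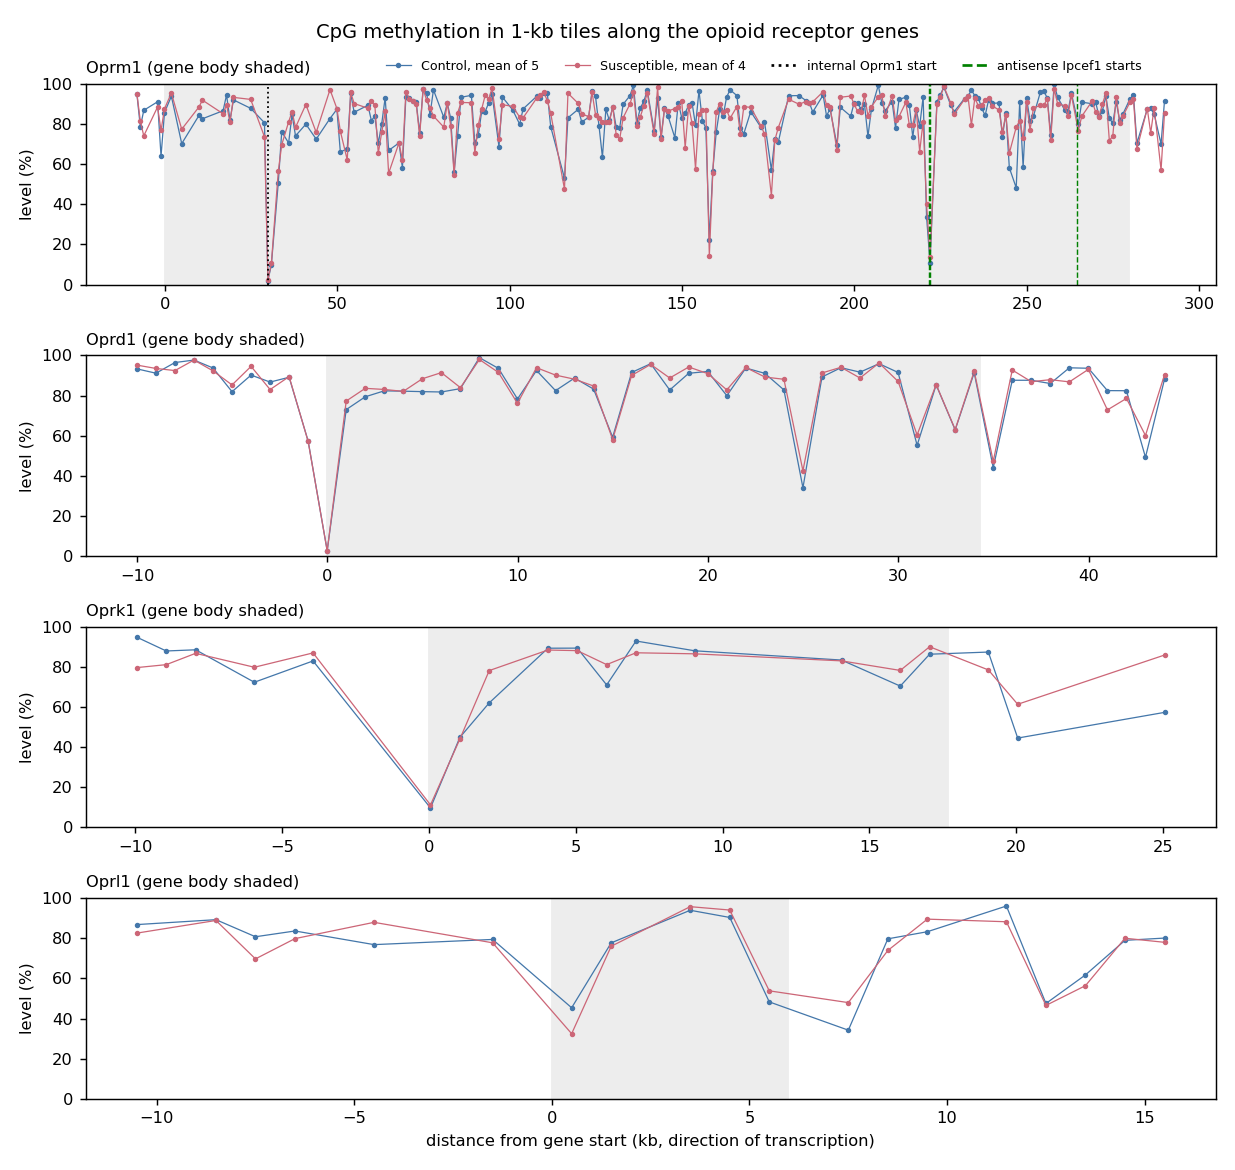
Mean methylation level (%) in 1-kb tiles listed in all 9 libraries, against distance from the gene start in kb in the direction of transcription, blue for Control (mean of 5) and red for Susceptible (mean of 4), with gene bodies shaded. Dotted and dashed lines mark the internal Oprm1 start and the antisense Ipcef1 starts. The valleys at the Oprm1 internal start (2.14%) and the Oprd1 start (2.60%) appear at the same place in both groups.

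Oprd1, the delta receptor gene, lies at chr4:132110188-132144486 (minus strand, gene ID 18386, 34299 bp), and a tRNA gene, n-TAcgc3 (chr4:132125259-132125330), lies inside it. Its body read 70.4, 70.6, 69.3, 71.0 and 74.8% in Control 2, 3, 4, 5 and 8 against 71.2, 69.3, 74.1 and 69.4% in Susceptible 2, 3, 6 and 7. Control 8 and Susceptible 6 were the highest and the groups overlapped. The means, 71.2% ± 2.09 and 71.0% ± 2.25, differed by -0.23 points (exact permutation p = 0.857), and the sign turned when Control 8, Susceptible 3 or Susceptible 7 was left out (+0.65, +0.34 and +0.29 points).

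The Oprd1 start was a CpG island with almost no methylation. Its window held 99 to 121 listed CpGs and 2606 to 7419 calls, and read 15.9, 16.5, 10.2, 6.49 and 20.1% in Control 2, 3, 4, 5 and 8 against 11.3, 10.5, 14.3 and 11.4% in Susceptible 2, 3, 6 and 7. The Control libraries spread more widely than the Susceptible ones and enclosed them (13.8% ± 5.42 against 11.9% ± 1.67, exact permutation p = 0.524). Of 85 CpGs listed in all 9 libraries, 76 were under 10% in both groups, from 415 bp before to 350 bp past the start, and levels rose outside that stretch, more gradually before the start than past it. The tile at the start, chr4:132144001-132145000, read 2.59% ± 1.01 in Control and 2.60% ± 0.872 in Susceptible. With 83 to 97 CpGs and 2303 to 6407 calls per library it had the most calls of the start tiles of the 4 genes.

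Further along Oprd1, 28 of 35 body tiles were above 80% and 2 were under 50%. One CpG-dense tile 31.0 kb past the start, chr4:132113001-132114000 (49 to 58 CpGs, chosen after its values were seen), had an intermediate level. It read 50.5, 65.3, 59.2, 53.9 and 47.1% in Control 2, 3, 4, 5 and 8 against 66.8, 62.1, 66.7 and 45.9% in Susceptible 2, 3, 6 and 7, with Susceptible 7 the lowest of all 9 libraries (exact permutation p = 0.389). Of 32 tested body tiles, 9 read lower in Susceptible (median difference +0.58 points), while in Oprm1 it was 47 of 78 (median -0.73 points) and over all 4 bodies 59 of 119, against 52.4% of all tiles.

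Oprk1, the kappa receptor gene, lies at chr1:5588450-5606134 (gene ID 18387, 17685 bp). The tables used here give no strand for it, so the gene end richer in CpGs, the lower coordinate, stood in for its start. Its body read 54.5, 50.3, 60.5, 62.8 and 61.2% in Control 2, 3, 4, 5 and 8 against 53.9, 57.6, 62.1 and 56.4% in Susceptible 2, 3, 6 and 7, on 1464 to 2601 calls. It varied most of the 4 bodies, with Control 3 the lowest and Control 5 the highest library. The means were 57.9% ± 5.25 and 57.5% ± 3.43 (exact permutation p = 0.905), and the sign of this difference of -0.38 points turned when any one of Control 4, Control 5, Control 8 or Susceptible 2 was left out (+0.27 to +0.86 points).

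The Oprk1 start was a narrow valley with sloping sides. The window read 28.0, 18.8, 22.8, 28.4 and 29.4% in Control 2, 3, 4, 5 and 8 against 24.3, 28.3, 31.7 and 27.0% in Susceptible 2, 3, 6 and 7. The groups overlapped, with means of 25.5% ± 4.54 and 27.8% ± 3.05 (exact permutation p = 0.421). Of 16 CpGs listed in all 9 libraries, 5 were under 10% in both groups, 113 to 230 bp into the gene, and the most methylated one reached 81.0% in Control and 82.3% in Susceptible within the same window. The tile at the start, chr1:5588001-5589000, read 9.70% ± 4.99 in Control and 11.2% ± 1.56 in Susceptible, and the next one read 44.5% over all libraries.

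**Figure D3:**
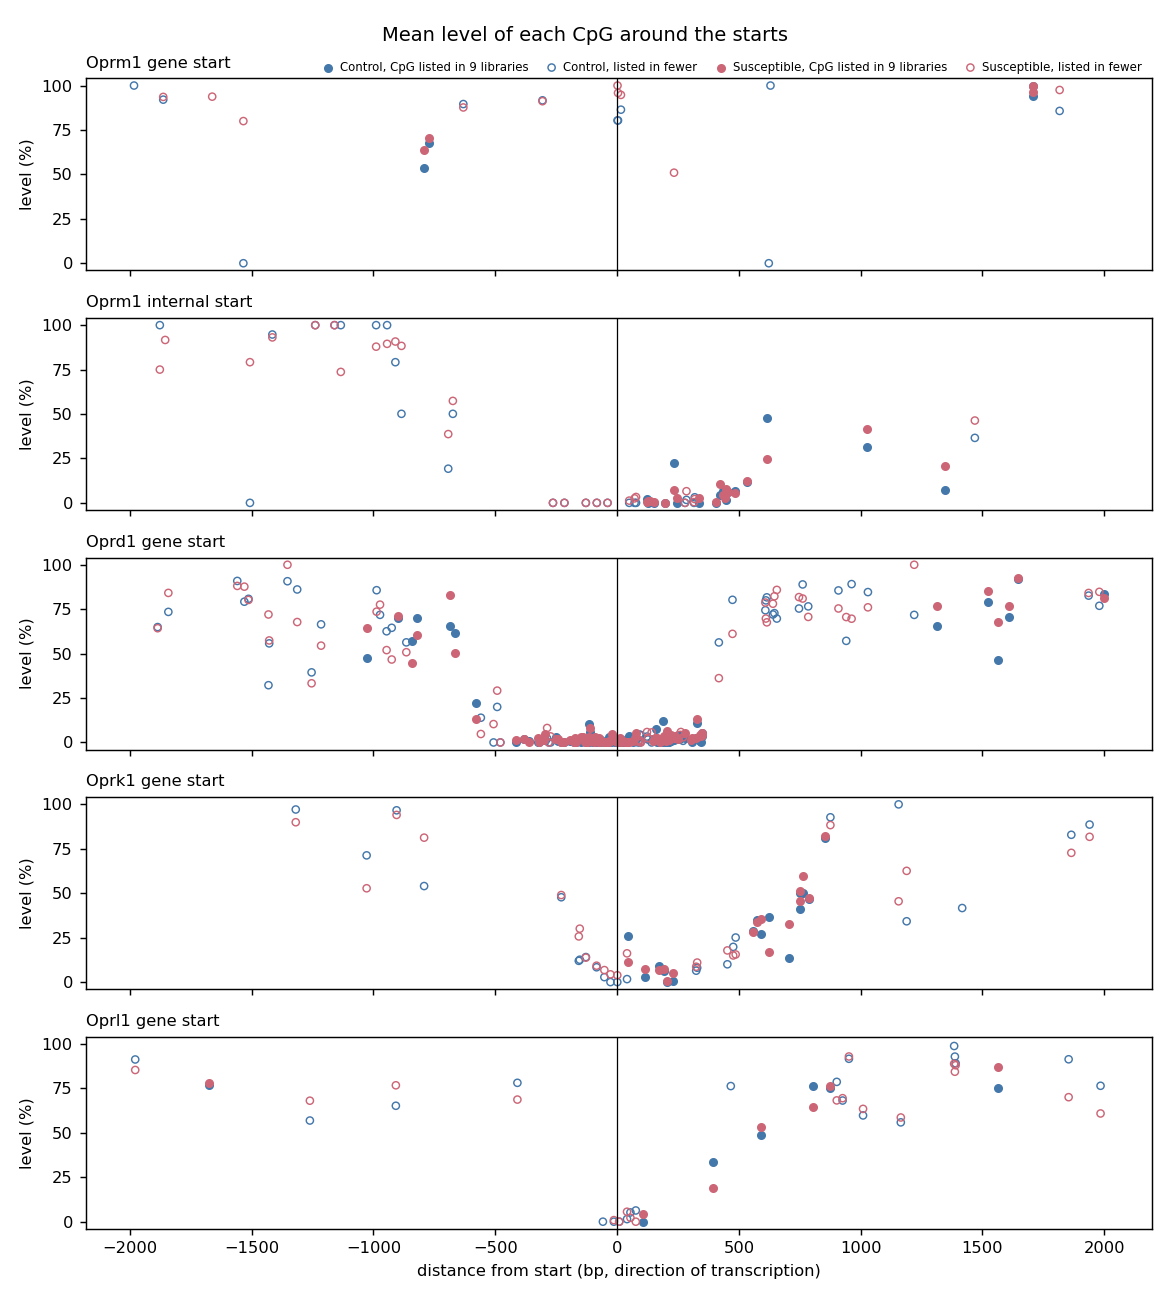
Mean methylation level (%) of each CpG against distance from the start in bp, for the 5 starts, blue for Control and red for Susceptible, filled where the CpG is listed in all 9 libraries and open where it is listed in fewer. The island of Oprd1 is low from 415 bp before to 350 bp past the start, and the low CpGs at the Oprl1 start are mostly open symbols.

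Oprl1, the nociceptin receptor gene, lies at chr2:181715000-181720985 (plus strand, gene ID 18389, 5986 bp) and showed, at its start, the only group difference among the 4 bodies and 4 gene starts with an unadjusted p under 0.05. Its body read 77.2, 76.9, 75.1, 75.9 and 78.6% in Control 2, 3, 4, 5 and 8 against 79.2, 73.5, 73.7 and 75.1% in Susceptible 2, 3, 6 and 7. Susceptible 2 was the highest of all, and the means of 76.7% ± 1.33 and 75.4% ± 2.65 did not differ beyond the spread (exact permutation p = 0.333). The start window read 31.7, 48.6, 43.8, 49.7 and 52.7% in the Control libraries in that order, and 35.6, 31.6, 30.7 and 30.9% in the Susceptible ones. Control 2 lay among the Susceptible libraries and the other 4 Control libraries lay above all of them. The means, 45.3% ± 8.25 and 32.2% ± 2.31, differed by -13.1 points (exact permutation p = 0.0238). In the moderated quasi-binomial model the unadjusted p was 0.0110 and the Benjamini-Hochberg adjusted p over all 42529 start windows was 0.989, so it was not called. Without Control 5 and Control 8 the difference was -9.15 points (exact permutation p = 0.0571), and leaving out 1 library at a time gave -16.5 to -11.2 points with exact permutation p of 0.0286 to 0.0714, above 0.05 without any one of Control 3, 4, 5 and 8 and Susceptible 3, 6 and 7.

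The listed CpGs of that window were not the same in each library. It holds 17 CpGs, of which 7 lie from 58 bp before to 106 bp past the start. The 7 read 0 to 5.88% in every library, but Control 2, 3, 4, 5 and 8 listed 6, 7, 4, 5 and 1 of them while each Susceptible library listed 6. They gave 57.0, 37.8, 26.8, 27.0 and 11.1% of the window's calls in Control 2, 3, 4, 5 and 8 against 49.6, 42.1, 50.5 and 61.9% in Susceptible 2, 3, 6 and 7. These shares overlapped between the groups (31.9% ± 16.9 and 51.0% ± 8.17, exact permutation p = 0.0952). The level of the 7 CpGs was 2.13% ± 2.94 in Control and 2.17% ± 1.97 in Susceptible, and that of the other 10 CpGs 66.8% ± 8.06 and 64.4% ± 8.69 (difference -2.39 points, exact permutation p = 0.683). This division of the window was chosen after the values were seen, and the part of the listed CpGs in the window's difference was not tested. Over the 5 CpGs listed in all 9 libraries the difference was -6.69 points (exact permutation p = 0.135), and with each CpG weighted equally -5.20 points (exact permutation p = 0.127). With at least 20 calls per cytosine it was larger, -18.7 points (39.9% in Control and 21.2% in Susceptible, exact permutation p = 0.0714).

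A window of 2 kb on each side of the Oprl1 start gave 58.8% ± 4.39 and 48.3% ± 3.32, with all 4 Susceptible libraries below all 5 Control libraries (exact permutation p = 0.00794, the smallest possible, against 1.59% of all windows of that size without overlap), and an adjusted p of 0.995 in the quasi-binomial model. This wider window contains the same 7 CpGs beside the start, so it is no separate evidence. It listed 24, 25, 24, 17 and 15 CpGs in Control 2, 3, 4, 5 and 8 against 26, 26, 25 and 24 in Susceptible 2, 3, 6 and 7. The part of the listed CpGs in its difference was not tested. A window of 500 bp on each side, with 3 to 8 CpGs and 79 to 306 calls, gave 19.7% ± 15.1 and 5.61% ± 3.63 with overlapping groups (exact permutation p = 0.127). The CpG 392 bp past the gene start, listed in all 9 libraries on 11 to 48 calls, read 31.6, 24.0, 39.1, 31.2 and 42.1% in Control 2, 3, 4, 5 and 8 against 33.3, 15.4, 9.68 and 18.2% in Susceptible 2, 3, 6 and 7. Susceptible 2 lay within the Control range there, so the groups overlapped. No CpG listed in all 9 libraries separated the groups in any of the 5 start windows. At the Oprd1 start and the Oprm1 internal start this says little, since most of these CpGs were under 10% in both groups (76 of 85 and 13 of 17). Many libraries read 0% at such CpGs, which leaves little room for separation. That reason does not cover the other starts, where 5 of 16 (Oprk1), 1 of 5 (Oprl1) and 0 of 2 (Oprm1 gene start) were under 10% in both groups. There the absence of separation rests on few CpGs. The share over all CpGs is not given here.

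Across the family no gene body and no start window passed the model. At an adjusted p under 0.05, 0 of 4 bodies were called, against 0% of the 39099 bodies tested, and 0 of 4 were under an unadjusted p of 0.05, against 4.59%. For gene starts it was 0 of 4 called, against 0% of 42529 windows, and 1 of 4 (Oprl1) under an unadjusted p of 0.05, against 4.59%. Non-overlapping groups were seen in 0 of 4 bodies and 0 of 4 gene starts, against 1.56% and 1.74% of all. With 2 kb on each side it was 1 of 4 gene starts (Oprl1), against 1.59%. Analysed instead with limma on logit methylation, 0 of all 39099 bodies and 0 of all 42529 starts were called. Of these, 1523 bodies and 1519 starts were at an unadjusted p under 0.05. The unadjusted p-values of the 4 receptors in that model are not given here. Adjusted p-values of the 4 bodies and 4 starts lay between 0.989 and 1.0 in the quasi-binomial model, and the median difference over all bodies tested was -0.34 points. Group changes were also compared between genes, as 12 pairwise contrasts. None passed. The largest difference was between the starts of Oprm1 and Oprl1, at 19.5 points (exact permutation p = 0.119, adjusted p = 0.476 over 12). Leaving out 1 library at a time moved it from 11.3 to 25.1 points. The smallest p was for the starts of Oprk1 and Oprl1, at 15.4 points (exact permutation p = 0.0317, adjusted p = 0.381). That difference ran from 12.9 to 19.4 points when 1 library was left out.

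Over the genes and 10 kb on each side, 413 tiles were listed and 147 had enough calls to test. None was called (0 of 147, against 0% of 1041809 tiles), 7 had an unadjusted p under 0.05 (4.76%, against 4.38%) and 1 had groups that did not overlap (0.680%, against 1.56%), so the shares of the receptor tiles lay near or below those of the genome. With limma on logit methylation 0 tiles were called and 4 of the 147 had an unadjusted p under 0.05 (2.72%, against 3.25% of all tiles in that model). The tile without overlap, chr10:7047001-7048000, lies beyond the end of Oprm1 but within the bounds of Ipcef1. It read 70.1% ± 10.4 in Control and 57.1% ± 5.35 in Susceptible.

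The 3 tiles of smallest p all missed the threshold, with an adjusted p of 0.997 each in the quasi-binomial model. The first, chr2:181715001-181716000, covers the start of Oprl1 and repeats the window above (45.4% ± 9.65 and 32.5% ± 3.13). The second, chr10:6922001-6923000, lies 164 kb into Oprm1, where Ipcef1 overlaps it, and rests on 3 to 6 CpGs. It read 96.3, 91.2 and 98.3% in Control 2, 4 and 8, with every call methylated in Control 3 and Control 5, and 87.6, 91.2, 85.5 and 67.1% in Susceptible 2, 3, 6 and 7. Susceptible 7 was far below the rest, and the groups overlapped, since Susceptible 3 lay slightly above Control 4. The third, chr4:132126001-132127000, lies 18.0 kb into Oprd1, with 82.8% ± 3.27 in Control and 88.8% ± 2.33 in Susceptible. It was the one of the 3 in which Susceptible was higher, and its groups overlapped.

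**Figure D4:**
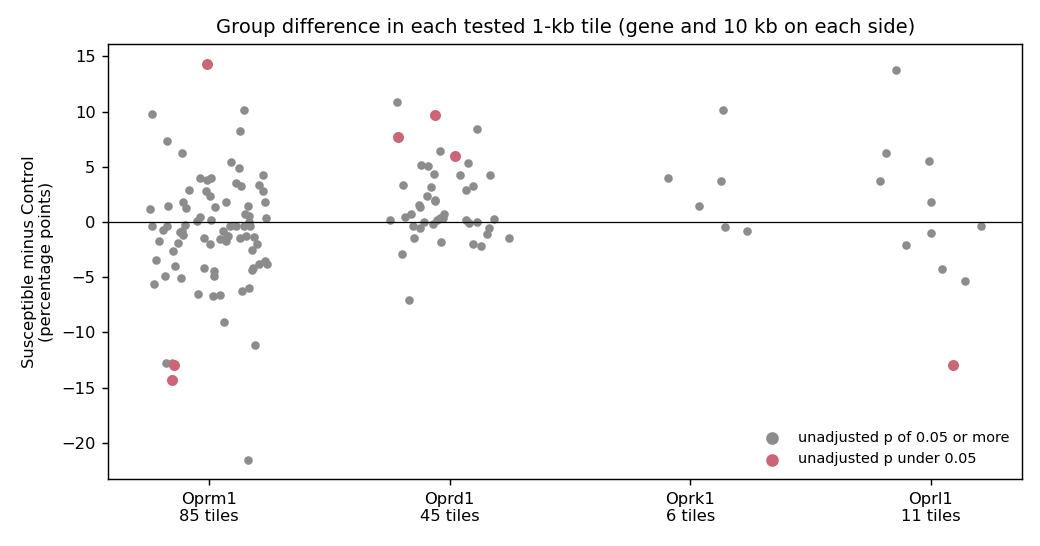
Susceptible minus Control difference in percentage points of each of the 147 tested tiles over the genes and 10 kb on each side, by gene, red where the unadjusted p is under 0.05 (7 tiles) and grey otherwise. Tiles scatter on both sides of 0 in Oprm1, and no tile passed the adjusted threshold.

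The endogenous ligands of these receptors are cut from 4 precursors, none of which was called or had an unadjusted p under 0.05 over its body or start in the quasi-binomial model. Penk, the enkephalin precursor, had the least methylated start, 5.41% ± 1.73 in Control and 5.78% ± 0.884 in Susceptible, and its body read 37.8% ± 7.48 and 32.4% ± 2.93. Pdyn, the dynorphin precursor, read 15.2% ± 2.84 and 14.9% ± 0.909 at its start and 73.8% ± 2.13 and 75.5% ± 1.27 over its body. Both are made by striatal projection neurons. Pomc, the endorphin precursor, and Pnoc, the nociceptin precursor, had methylated starts, at 62.9% ± 10.5 and 80.3% ± 3.64 in Control and 56.4% ± 8.66 and 78.7% ± 2.64 in Susceptible. Groups overlapped for all of these values. For Penk and Pnoc the tables give no strand and the CpG-richer end was used.

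**Figure D5:**
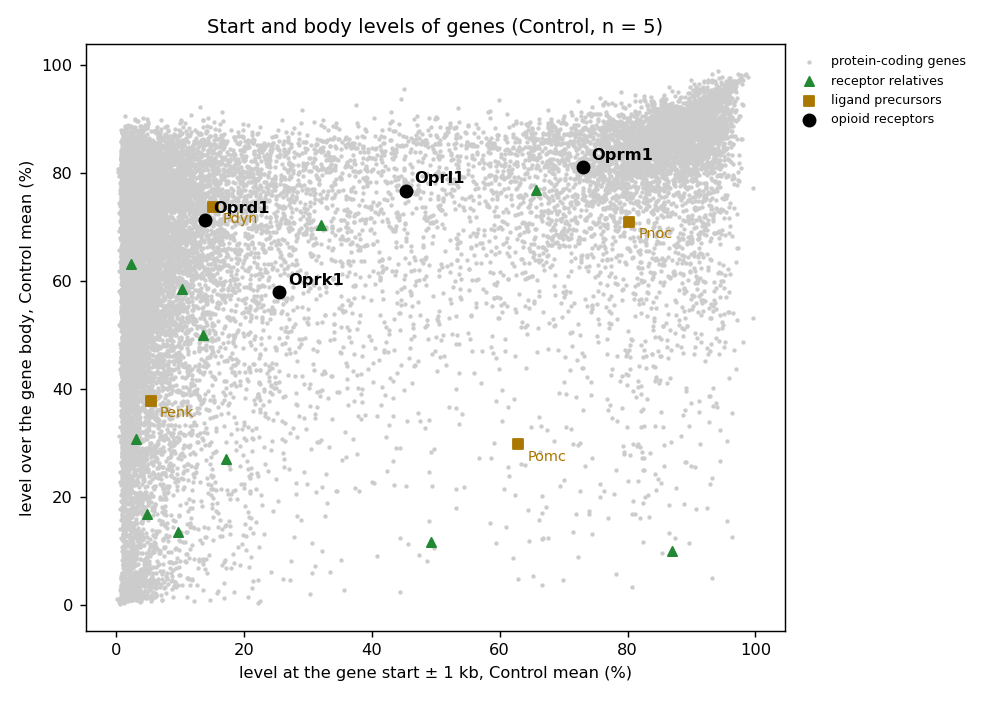
Control mean level (%) over the gene body against the level within 1 kb of the start, for 19038 protein-coding genes with both tested (grey), the 4 opioid receptors (black), the 4 ligand precursors (squares) and 11 related receptors (triangles). Oprd1 lies beside Pdyn at a low start and a methylated body, and Oprm1, by its gene start, lies with genes methylated at both.

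Among 7 genes that process or break down opioid peptides, 0 were called in the quasi-binomial model. At an unadjusted p under 0.05 were the bodies of Pcsk2, a prohormone convertase (+3.34 points), and Ece1, an endothelin-converting enzyme (-1.48 points), and the start of Anpep, an aminopeptidase (-7.62 points). That makes 2 of 7 bodies and 1 of 7 starts, against 4.59% of all bodies and of all starts. The Ece1 difference was -0.98 points without Control 8 and -0.76 without Control 5 and Control 8. Of 35 genes of receptor signalling and regulation, 0 of 35 bodies and 0 of 34 tested starts were called, and 5 bodies (14.3%) and 2 starts (5.88%) had an unadjusted p under 0.05, against 4.59% of all bodies and of all starts. The bodies were Ogfr, the opioid growth factor receptor (39.0% ± 1.82 against 47.8% ± 1.48), Gnb1 and Gng7, which encode G protein subunits (+3.43 and +4.67 points), Arrb2, an arrestin of receptor desensitisation (+6.45 points), and Grk5, a receptor kinase (-2.80 points). The Arrb2 body difference was +3.88 points without Control 5 and +2.11 without Control 5 and Control 8. That of Gng7 was +3.05 points without Susceptible 7, and Susceptible 6 and Susceptible 7, the pair apart at the striatal marker bodies, were the 2 highest libraries (58.5 and 60.3%) while the other 2 lay within the Control range. The starts were those of Arrb2 (2.92% against 4.96%) and Adcy5, the adenylyl cyclase of striatal neurons (1.42% against 2.11%). Ogfr, which is no G protein-coupled receptor, and Gnb1 had all 4 Susceptible libraries above all 5 Control ones. That held for 0.499% of bodies tested, while 1.56% had no overlap in either direction. Adjusted p-values of these genes were 0.989 to 0.997. The median difference over the 35 bodies was -0.19 points, beside -0.34 over all bodies.

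The 11 related receptors, of the somatostatin, galanin, kisspeptin and neighbouring families, had a Control median of 30.8% over their bodies (range 10.1 to 76.8%) and 13.7% at their starts. In Control, 0 of the 11 had a higher body than Oprm1, 1 had a higher one than Oprl1 and Oprd1, and 4 had a higher one than Oprk1. None was called in the quasi-binomial model. The bodies at an unadjusted p under 0.05 were those of Sstr5, a somatostatin receptor (70.4% against 74.2%), and Galr1, a galanin receptor (58.5% against 54.6%). The Galr1 difference of -3.98 points was -2.65 without Control 5 and Control 8. Of the starts, only that of Kiss1r, the kisspeptin receptor, had an unadjusted p under 0.05 (adjusted p = 0.989 in the quasi-binomial model). It read 3.16% ± 1.18 in Control and 6.56% ± 1.26 in Susceptible without overlap. That held with Susceptible higher for 0.844% of starts tested, while 1.74% had no overlap in either direction. In sum, 2 of 11 bodies and 1 of 11 starts had an unadjusted p under 0.05, against 4.59% of all bodies and of all starts.

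The bodies of the 4 receptors did not move together from library to library, with Pearson correlations between pairs of -0.37 to 0.41 over 9 libraries. Of 20100 protein-coding genes compared over the same 9 libraries, those most like Oprm1 were Pfn1 and Fzd10 (r = 0.971 and 0.948), most like Oprd1 Hba-a1 and Catspere2 (0.956 and 0.952), most like Oprk1 Coa8 and Rassf9 (0.947 and 0.946), and most like Oprl1 Nup35 and Dnajc3 (0.912 and 0.891). These are the highest of many values over libraries that differ in depth and in listed CpGs, and are given as a description.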

How the data were processed

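Calls at CpG cytosines were deposited for 9 nucleus accumbens libraries. Per the labels' protocols, DNA from frozen punches was made into libraries with the Pico Methyl-seq kit. Bismark, Bowtie, Picard and build mm10 are named in the submitters' processing notes, at settings that these sources do not give. The deposited coverage column holds the count of calls per cytosine and the deposited frequencies are each the percent of C or of T among those calls, per the file headers. Every listed cytosine had at least 10 calls, so listed calls are not the full depth, and CpGs covered less are missing library by library. Bisulfite does not separate hydroxymethylation from methylation. Counting error only is covered by call numbers, since no molecular identifiers are named in the labels.

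Methylated calls were recovered as count times percent, and strands were added per CpG. In Control 5 and Control 8, 4 and 8 repeated entries were dropped. Levels are methylated over all calls in the RefSeq gene bounds (GRCm38.p6), in windows of 1 kb on each side of the start, and in 1-kb tiles. Of 396389 listed positions inside promoter stretches, 0 were off a CpG. The start came from the strand in the promoter table, known for 26794 genes, and otherwise from the CpG-richer gene end. Features needed 3 CpGs and 20 calls in every library. Groups were compared with a quasi-binomial logistic model, its dispersion moderated as in limma (version 3.58.1, R 4.3.3) and kept at 1 or more, with Benjamini-Hochberg adjustment over all features and a threshold of 0.05. Exact two-sided permutation tests used all 126 assignments of the group labels, and paired comparisons of genes all 512 sign flips. The model was tested on simulated counts drawn at the median dispersion of each kind of feature. That does not show what differences could be detected at these 4 genes. Python 3.11.15 and numpy 2.4.6 were used.

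The 4 members, the gene lists and the tests were chosen with earlier results of these data known. Named were the 4 receptors, the lowest tile of each gene and the 3 tiles of smallest p, the ligand precursors, list genes with an unadjusted p under 0.05, overlapping genes, and the 2 most alike genes of each receptor. Marker lists covered striatal and cortical projection neurons, oligodendrocytes, astrocytes, microglia and endothelium. Of the 12 summed marker levels, the other 10 had exact permutation p-values of 0.175 to 0.802. The lowest tile of Oprl1, chr2:181717001-181718000 at 36.5%, rests on 0 to 3 CpGs and was not tested. Alternatives were another minimum of calls, CpGs listed in all 9 libraries, equal weights, other windows and starts, limma on logit methylation, no moderation, and leaving out libraries.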

Additional observations from a re-analysis of the deposited data

How the results depend on the processing

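No receptor body, start window or tile was called under any alternative, so what moved were signs and sizes of differences. Under a minimum of 20 calls the body difference became +0.11 points for Oprm1 and +1.55 for Oprk1. The Oprl1 start difference became -18.7 points there and was also no longer under 0.05 by exact permutation (p = 0.0714). Over CpGs listed in all 9 libraries the body difference became +3.20 for Oprk1 and +2.88 for Oprl1, and the level of Oprm1 minus Oprl1 became -5.05. Group changes became -3.65 for Oprm1 against Oprl1, -3.78 for Oprd1 against Oprk1 and -3.46 for Oprd1 against Oprl1. The Oprm1 body difference was -0.77 there, so the group change of Oprm1 against Oprk1, -0.08 with all CpGs, also became more negative. Without Control 5 and Control 8 together, the differences were +0.88 (Oprd1 body), +2.37 (Oprk1 body) and -3.24 (Oprm1 start). With each CpG weighted equally they were +2.31 (Oprd1 body), +1.38 (Oprd1 start) and -5.20 (Oprl1 start, no longer under 0.05 by exact permutation), and Oprd1 minus Oprl1 over bodies was -1.497. The Oprm1 window at the internal start gave -1.74, and the Oprl1 start without the 7 CpGs beside it, an alternative chosen after seeing the data like the choice of other starts, -2.39. Windows at Oprl1 starts 181715016, 181715348 and 181715690 gave -12.4, -12.7 and -10.2 points (exact permutation p = 0.0397, 0.0397 and 0.0317). Their groups overlapped, their adjusted p was 0.973 in the quasi-binomial model, and they contain the same 7 CpGs. The causes of these changes were not tested.

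Leaving out each library in turn gave body differences of -0.73 to -0.11 (Oprm1), -1.28 to +0.65 (Oprd1), -2.27 to +0.86 (Oprk1) and -2.64 to -0.73 (Oprl1), and start differences of -0.69 to +11.7 (Oprm1), -3.77 to -0.37 (Oprd1), +0.67 to +3.50 (Oprk1) and -16.5 to -11.2 (Oprl1). Group changes between bodies ran from -1.37 to +0.78 (Oprm1 against Oprd1), -1.54 to +1.64 (Oprm1 against Oprk1), -1.15 to +1.89 (Oprd1 against Oprk1), -0.47 to +2.34 (Oprd1 against Oprl1) and -1.11 to +3.45 (Oprk1 against Oprl1), and between the starts of Oprm1 and Oprk1 from -3.76 to +9.99. Over all genes, 0 to 1 start windows and over all tiles 0 to 1 tiles were called: 1 start each without Control 4 and without Susceptible 7, and 1 tile without Control 4. Tiles of the 4 genes at an unadjusted p under 0.05 numbered 4 of 72 tested with at least 5 CpGs and 50 calls (5.56%, against 4.25% of 668146 tiles).

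Only numbers 2 and 3 occur in both groups. A replicate block over these 4 libraries gave +3.32 points for the Oprk1 body and turned no other sign among the 4 bodies and 4 gene starts. Over the same libraries the group changes of Oprd1 against Oprk1 bodies and of Oprm1 against Oprk1 starts turned to -3.61 and -1.09 points. The deviations of same-numbered libraries correlated at 0.002 and -0.016 over bodies and 0.016 and -0.022 over starts. So few pairs cannot decide whether such libraries share more than a number. A window of 500 bp could not be tested for Oprm1, which has too few CpGs there. The Oprm1 gene start rests on 60 to 141 calls per library, which limits its precision.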
